A study of Mus musculus with 6 samples.

Results

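Interferon-stimulated effector genes encode the proteins with which a cell blocks or degrades viral RNA, proteins and particles. A list of 41 such mouse genes was looked up by its symbols in the array annotation. Of these, 38 genes had at least 1 probe, and together they held 58 of the 25697 probes on the arrays. Ifi44, Dtx3l and Herc6 had no probe under those symbols and were not analysed here. Signals were compared between 3 groups of mouse cells with 2 Illumina arrays each. The group piPSC holds protein induced pluripotent stem cells, reprogrammed with recombinant proteins according to the title of the series. The group OG2-MEF holds fibroblasts of E13.5 embryos with a GFP transgene under the Oct4 promoter, grown on gelatin in fibroblast medium. The group ES holds embryonic stem cells of the R1 line, and the labels give piPSC and ES the same culture, in serum and leukemia inhibitory factor on feeder fibroblasts that had been irradiated. No group was given interferon or a virus in the labels, and the labels say neither which cells the piPSC were made from nor how many piPSC lines were used. Replicate arrays are called biological in the labels, with no word on whether each had its own culture. The p-values given here therefore set differences between group means against the spread of these samples, which may in part be technical. Their precision is limited by the small number of arrays.

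Type I interferons bind a receptor formed by Ifnar1 and Ifnar2, whose kinases Jak1 and Tyk2 activate transcription factors, among them Stat2. Stat2 and Irf9 are parts of the complex ISGF3, which binds the interferon-stimulated response element in the promoters of these genes. Type II interferon acts through a receptor of Ifngr1 and Ifngr2. Pluripotent stem cells are known for a weak response to interferon, and human pluripotent cells are known to express some of these genes, including IFITM genes, without added interferon.

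The response element can be written as GAAANNGAAA, where N is any base, or TTTCNNTTTC when it lies on the other strand. Both forms were searched on the sense strand of RefSeq promoters of build GRCm38.p6, each reaching from 250 bases before a gene's start to 50 bases after it, and overlapping matches were counted singly. The table held 35 promoters of 31 of the 41 genes. Of these promoters, 15 (42.9%) held at least 1 match, against 1131 of all 32851 promoters in the table (3.44%). The matches belonged to 15 genes, namely Isg15, Ifit1, Ifit3, Oas1a, Oas3, Eif2ak2, Gbp2, Gbp3, Irgm1, Igtp, Ifitm2, Ifitm3, Bst2, Rsad2 and Trim21. A match is a description of the letters and not evidence of binding. The 250 bases before the start are shown for 5 of them, with the matches in capitals, because these promoters hold the element and the genes differ in what the arrays showed.
Isg15, minus strand, chr4:156200819-156201068: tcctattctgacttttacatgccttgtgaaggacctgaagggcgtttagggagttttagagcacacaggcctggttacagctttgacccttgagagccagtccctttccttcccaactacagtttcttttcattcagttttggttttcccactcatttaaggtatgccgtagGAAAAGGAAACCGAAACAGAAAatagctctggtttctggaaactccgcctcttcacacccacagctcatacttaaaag
Ifit3, plus strand, chr19:34583279-34583528: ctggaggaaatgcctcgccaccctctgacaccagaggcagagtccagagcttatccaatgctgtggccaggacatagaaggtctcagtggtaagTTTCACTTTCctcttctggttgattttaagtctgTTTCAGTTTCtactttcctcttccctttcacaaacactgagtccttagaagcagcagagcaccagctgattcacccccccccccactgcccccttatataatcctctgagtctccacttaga
Ifit1, plus strand, chr19:34640639-34640888: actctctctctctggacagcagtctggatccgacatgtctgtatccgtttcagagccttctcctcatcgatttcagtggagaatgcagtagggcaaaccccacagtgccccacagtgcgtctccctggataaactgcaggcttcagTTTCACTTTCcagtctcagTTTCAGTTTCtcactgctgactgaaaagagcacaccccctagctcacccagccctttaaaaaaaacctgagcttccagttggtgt
Rsad2, minus strand, chr12:26456453-26456702: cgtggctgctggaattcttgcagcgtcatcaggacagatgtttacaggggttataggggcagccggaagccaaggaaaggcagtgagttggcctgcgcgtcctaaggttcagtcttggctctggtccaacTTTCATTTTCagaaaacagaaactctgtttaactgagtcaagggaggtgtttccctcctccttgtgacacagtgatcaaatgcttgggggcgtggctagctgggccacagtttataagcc
Bst2, minus strand, chr8:71537473-71537722: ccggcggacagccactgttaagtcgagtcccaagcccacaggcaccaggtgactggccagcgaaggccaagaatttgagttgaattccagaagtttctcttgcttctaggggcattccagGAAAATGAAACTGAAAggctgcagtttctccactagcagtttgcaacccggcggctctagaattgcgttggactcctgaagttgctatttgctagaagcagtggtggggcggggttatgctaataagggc
The first bases of the 3 overlapping matches of Isg15 lie 78, 72 and 66 bases before the start. Those of Ifit3 lie at 156 and 122, those of Ifit1 at 104 and 85, that of Rsad2 at 120 and those of Bst2, which overlap, at 130 and 124. As given below, the signals of Isg15, Ifit3, Rsad2 and Bst2 were highest in piPSC, while the probe of Ifit1, with the same element in its promoter, was not above background on any array. Of the 21 genes higher in piPSC than in OG2-MEF that had a promoter in the table, 12 held a match. Oasl1, Oasl2, Ifitm1, Samd9l, Parp12, Trim25, Ifi35, Lgals3bp and Cmpk2 were higher and held none. Of the 3 tested genes with a promoter that were not higher, 1 held a match. A link between the element and the signals was not tested.

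Levels are log2 signals after background correction and quantile normalization, on which a difference of 1 is 2-fold. A probe was above background on an array where its deposited detection p-value was under 0.05, and was tested where this held on both arrays of at least 1 group. A probe changed where its adjusted p was under 0.05 and its difference at least 2-fold (limma, adjusted over all 14533 tested probes), and a gene was counted where at least 1 of its probes changed. Between 46.87% and 52.41% of all probes were above background, the lowest share on ES replicate 2. This array stood apart. It lay more than 2-fold below ES replicate 1 for 943 probes and above it for 37, and the SD of the difference between replicates was 0.645 in ES, 0.21 in piPSC and 0.193 in OG2-MEF. All 8 pluripotency markers were higher in piPSC than in OG2-MEF, against 21.2% of all tested genes, and all 8 in ES, against 27.1%. On 1 Pou5f1 probe ES replicate 1 read 11.68 and ES replicate 2 read 6.58, and on Zfp42 they read 11.18 and 8.43. The other Pou5f1 probe read 13.42 and 12.58 in ES, and Nanog 13.40 and 13.30. A Sall4 probe was not above background on either ES array, while its other probes were. Fibroblast markers, summed over 17 probes of 11 genes on a linear scale, lay at 63766 and 70125 in OG2-MEF, at 14896 and 16026 in piPSC and at 13011 and 14250 in ES. Of 10 tested fibroblast genes, 9 were lower and 0 higher in piPSC than in OG2-MEF, against 22.5% and 21.2% of all tested genes. Between piPSC and ES, 1 was lower and 0 higher in piPSC, against 5.14% and 8.07% of all tested genes. The part of feeder cells in the signals was not tested.

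Of the 38 genes with a probe, 32 were tested, with 45 probes. The other 6, Ifit1, Oas3, Mx1, Xaf1, Ifi204 and Isg20, had no probe above background on both arrays of any group, and all their values lay between 4.32 and 4.94. Over the 45 tested probes, the median log2 signal was 8.62 and 8.66 in piPSC, 7.15 and 7.21 in ES and 5.18 and 5.38 in OG2-MEF. The median of all tested probes was 7.58 on each array. Of all 58 probes, 45 and 44 were above background in piPSC, 40 and 40 in ES, and 27 and 27 in OG2-MEF. In such bulk samples, fewer cells expressing a gene and less RNA per cell cannot be told apart. The genes were brightest in piPSC, intermediate in ES and dimmest in OG2-MEF. For 26 of the 45 probes, from 22 genes, both piPSC arrays lay above both ES arrays and these above both OG2-MEF arrays, an order held by 6.12% of all tested probes and by a probe of 7.39% of all tested genes.

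**Figure D1:**
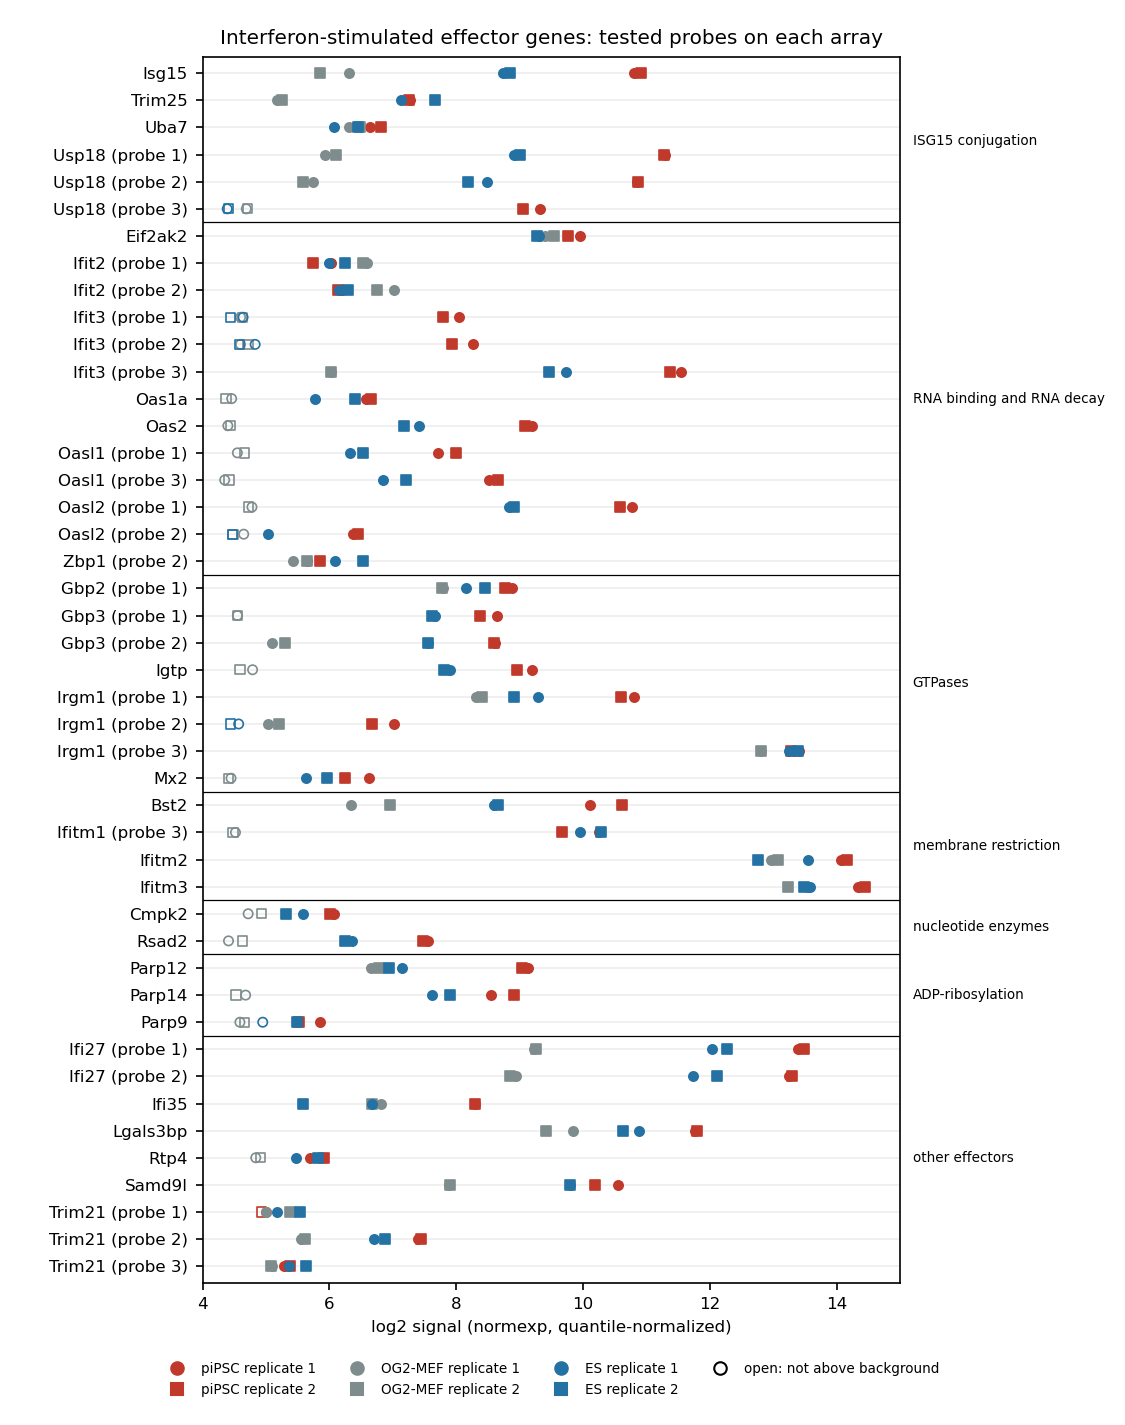
Log2 signal (x axis) of the 45 tested probes of interferon-stimulated effector genes (y axis, grouped by role) on each of the 6 arrays; circles are replicate 1, squares replicate 2, and open symbols are not above background. Most piPSC points lie to the right of the ES points and most OG2-MEF points to the left, with 18 probes open on both OG2-MEF arrays.

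The comparison of piPSC with OG2-MEF sets the induced cells against fibroblasts. Of the 32 tested genes, 27 were higher in piPSC and 0 lower, where 21.2% of all tested genes were higher and 22.5% lower. At an unadjusted limma p under 0.05 with no fold threshold, 1 gene, Ifit2, was lower. The median difference of the 45 probes was 2.34 on the log2 scale, against 0.02 for all tested probes. Ifit2, Rtp4, Eif2ak2, Uba7 and Zbp1 did not pass in either direction. Of the tested probes, 5, from Usp18, Ifit3, Oasl2 and Parp9, entered only through the piPSC arrays, so that they had to be brighter there. Among the 27 probes above background on both OG2-MEF arrays, 19, from 16 genes, were higher in piPSC, against 15.2% of all such probes. Where a probe was not above background in OG2-MEF, the difference is given as a lower bound against the lowest signal above background.

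Isg15 is a ubiquitin-like protein that is attached to other proteins during an antiviral response. Its probe read 10.80 and 10.91 in piPSC, 6.31 and 5.86 in OG2-MEF and 8.74 and 8.85 in ES. The groups did not overlap, and the difference between piPSC and OG2-MEF was 4.77 (SE 0.18, adjusted p = 1.3e-05). Usp18 removes Isg15 from proteins and restrains signalling at the type I receptor. Its brightest probe read 11.30 and 11.28 in piPSC, 5.93 and 6.11 in OG2-MEF and 8.92 and 9.0 in ES, which is 5.27 higher in piPSC than in OG2-MEF (SE 0.13, adjusted p = 4.4e-06). Another Usp18 probe differed by 5.20 (SE 0.15), and the last of its 3, not above background in OG2-MEF, was at least 18.2-fold higher. Trim25, a ubiquitin and Isg15 ligase that acts on the RNA sensor RIG-I, read 7.28 and 7.25 in piPSC, 5.18 and 5.26 in OG2-MEF and 7.13 and 7.67 in ES. It was 2.05 higher in piPSC than in OG2-MEF (SE 0.20, adjusted p = 0.00026), and the ES arrays lay on either side of the piPSC arrays. Uba7, the enzyme that activates Isg15, read 6.64 and 6.81 in piPSC and 6.31 and 6.48 in OG2-MEF, and its difference of 0.33 did not pass (adjusted p = 0.14).

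Among proteins that bind or degrade RNA, 5 of 8 tested genes were higher in piPSC than in OG2-MEF and 0 lower. Ifit3, a partner of the RNA-binding protein Ifit1, read 11.55 and 11.37 on its brightest probe in piPSC, 6.03 and 6.03 in OG2-MEF and 9.74 and 9.46 in ES. The difference between piPSC and OG2-MEF was 5.43 (SE 0.15, adjusted p = 5.7e-06). Ifit2, which also binds RNA and lies next to Ifit3 on chromosome 19, had no such difference. One of its probes read 6.20 and 6.13 in piPSC, 7.02 and 6.75 in OG2-MEF and 6.15 and 6.29 in ES, and both OG2-MEF arrays lay above the other 4. On its probes the differences were -0.72 (SE 0.15, adjusted p = 0.0063) and -0.69 (SE 0.16, adjusted p = 0.011), short of 2-fold. Ifit1, of the same family, lay between 4.35 and 4.45 on all 6 arrays, below background.

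The oligoadenylate synthetases make a messenger that switches on RNase L, which cuts RNA. Oasl2, an active synthetase of this family in the mouse, read 10.78 and 10.59 in piPSC and 8.84 and 8.91 in ES on its brighter probe, and was not above background in OG2-MEF (4.78 and 4.73). It was at least 51.2-fold higher in piPSC than in OG2-MEF (adjusted p = 3.6e-06). Oas2 read 9.20 and 9.09 in piPSC, 7.41 and 7.17 in ES and, not above background, 4.40 and 4.44 in OG2-MEF, at least 17.6-fold higher in piPSC. Oasl1, which in the mouse blocks translation of Irf7, was at least 12.0-fold higher on one probe and 7.22-fold on another. Oas1a read 6.58 and 6.65 in piPSC and was at least 3.06-fold higher than in OG2-MEF, where it was not above background. The third Oasl1 probe and both Oas3 probes were not above background on any array. Eif2ak2, the RNA-dependent kinase that halts translation, was above background on every array, at 9.95 and 9.77 in piPSC, 9.40 and 9.55 in OG2-MEF and 9.31 and 9.27 in ES. Its difference of 0.39 between piPSC and OG2-MEF was short of 2-fold (SE 0.13, adjusted p = 0.044). Zbp1, a sensor of nucleic acids in the Z form, read 5.65 and 5.86 in piPSC, 5.43 and 5.65 in OG2-MEF and 6.09 and 6.53 in ES on the 1 probe tested, with a difference of 0.22 between piPSC and OG2-MEF (adjusted p = 0.36).

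All 5 tested genes of the interferon-inducible GTPases, which act on viral capsids or on the membranes around intracellular pathogens, were higher in piPSC than in OG2-MEF. Igtp read 9.20 and 8.96 in piPSC, 7.91 and 7.81 in ES and, not above background, 4.79 and 4.59 in OG2-MEF, and was at least 16.9-fold higher in piPSC. Gbp3 read 8.62 and 8.59 in piPSC, 5.10 and 5.30 in OG2-MEF and 7.55 and 7.55 in ES on one probe, a difference of 3.40 between piPSC and OG2-MEF (SE 0.13), and was at least 11.4-fold higher on the other. For both genes the groups did not overlap. Mx2, a dynamin-like GTPase, read 6.62 and 6.24 in piPSC and 5.63 and 5.97 in ES, was not above background in OG2-MEF, and was at least 2.68-fold higher in piPSC, whereas Mx1 was not above background on any array. Gbp2 passed narrowly, at 8.88 and 8.77 in piPSC against 7.79 and 7.78 in OG2-MEF (1.04, SE 0.15, adjusted p = 0.0013). It fell short of 2-fold without background correction (0.96), with an offset of 50 (0.94) and when arrays were scaled to the same median (0.67). Irgm1 is described with the genes whose probes differed.

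The 4 membrane proteins Bst2, Ifitm1, Ifitm2 and Ifitm3 were all higher in piPSC than in OG2-MEF. Bst2, known as tetherin because it holds budding virus at the cell surface, read 10.11 and 10.61 in piPSC, 6.34 and 6.95 in OG2-MEF and 8.60 and 8.66 in ES. The groups did not overlap, and piPSC lay 3.71 above OG2-MEF (SE 0.26, adjusted p = 7.6e-05). The Ifitm proteins block fusion of viruses with cell membranes, and their genes lie side by side on chromosome 7. Ifitm1 read 10.25 and 9.67 in piPSC and 9.95 and 10.28 in ES on its bright probe, and 4.52 and 4.48, not above background, in OG2-MEF. It was at least 31.1-fold higher in piPSC and at least 34.6-fold higher in ES than in OG2-MEF, while its other probes, both dim, were not above background on any array. Ifitm3 read 14.34 and 14.45 in piPSC, 13.53 and 13.24 in OG2-MEF and 13.58 and 13.48 in ES. Ifitm2 read 14.07 and 14.17 in piPSC, 12.96 and 13.08 in OG2-MEF and 13.55 and 12.76 in ES. Both lay only just past 2-fold in piPSC against OG2-MEF, by 1.00 (SE 0.15, adjusted p = 0.0016) for Ifitm3 and 1.10 (SE 0.26, adjusted p = 0.011) for Ifitm2. The SE pools the spread of all 3 groups, ES included. For Ifitm2 the SD was 0.56 in ES, 0.07 in piPSC and 0.09 in OG2-MEF. The Ifitm2 call ended when any 1 of the 4 arrays compared was left out (adjusted p 0.053 to 0.073), and the Ifitm3 difference fell below 2-fold without piPSC replicate 2 (0.94) or OG2-MEF replicate 2 (0.88) and, like Ifitm2, with median scaling (0.98 for each).

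Rsad2 encodes viperin, which makes a nucleotide that stops viral RNA synthesis, and its neighbour Cmpk2 on chromosome 12 encodes a nucleotide kinase. Rsad2 read 7.56 and 7.47 in piPSC, 6.35 and 6.25 in ES and, not above background, 4.41 and 4.63 in OG2-MEF, at least 5.71-fold higher in piPSC. Cmpk2 was at least 2.05-fold higher, at 6.07 and 6.01 in piPSC, but its fitted difference of 1.22 fell to 0.80 without background correction and to 0.69 with an offset of 50. The ADP-ribosyltransferases Parp12 and Parp14 and the Dtx3l partner Parp9 were each higher. Parp14 read 8.55 and 8.92 in piPSC, 7.62 and 7.91 in ES and, not above background, 4.68 and 4.53 in OG2-MEF, at least 13.3-fold higher in piPSC. Parp12 read 9.13 and 9.04 in piPSC, 6.66 and 6.79 in OG2-MEF and 7.15 and 6.94 in ES, a difference of 2.36 between piPSC and OG2-MEF (SE 0.14). For Parp9 the bound was 1.61-fold, and its fitted difference of 1.06 fell below 2-fold without piPSC replicate 1 (0.88) or OG2-MEF replicate 1 (0.99), without background correction (0.72) and with an offset of 50 (0.55).

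Among the remaining effectors, 5 of 6 tested genes were higher in piPSC than in OG2-MEF. Ifi27, a small membrane protein, read 13.39 and 13.49 in piPSC, 9.23 and 9.26 in OG2-MEF and 12.04 and 12.27 in ES on one probe, a difference of 4.19 between piPSC and OG2-MEF (SE 0.14), and 4.38 (SE 0.16) on the other. Samd9l, a cytoplasmic protein that restrains translation, read 10.55 and 10.19 in piPSC, 7.89 and 7.90 in OG2-MEF and 9.79 and 9.79 in ES, with a difference of 2.47 (SE 0.16) between piPSC and OG2-MEF. Both genes were ordered without overlap from piPSC through ES to OG2-MEF. Lgals3bp, a secreted glycoprotein that binds galectins, read 11.77 and 11.80 in piPSC, 9.84 and 9.41 in OG2-MEF and 10.89 and 10.63 in ES, a difference of 2.16 between piPSC and OG2-MEF (SE 0.19). Ifi35 read 8.30 and 8.29 in piPSC, 6.81 and 6.68 in OG2-MEF and 6.67 and 5.59 in ES. Its SD was 0.77 in ES, 0.01 in piPSC and 0.1 in OG2-MEF, and its SE, too, pools all 3 groups. Its difference of 1.55 between piPSC and OG2-MEF (SE 0.34, adjusted p = 0.008) lost its call without OG2-MEF replicate 2 (adjusted p = 0.054). Rtp4, a chaperone of membrane receptors, read 5.70 and 5.91 in piPSC and 5.47 and 5.82 in ES and was not above background in OG2-MEF, and was at least 1.74-fold higher in piPSC. Its fitted difference of 0.93 (adjusted p = 0.0035) missed the 2-fold threshold of the test, and it passed with median scaling (1.01) or without piPSC replicate 1 (1.02). Leaving out 1 array at a time left between 24 and 25 of the genes higher in piPSC than in OG2-MEF.

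**Figure D2:**
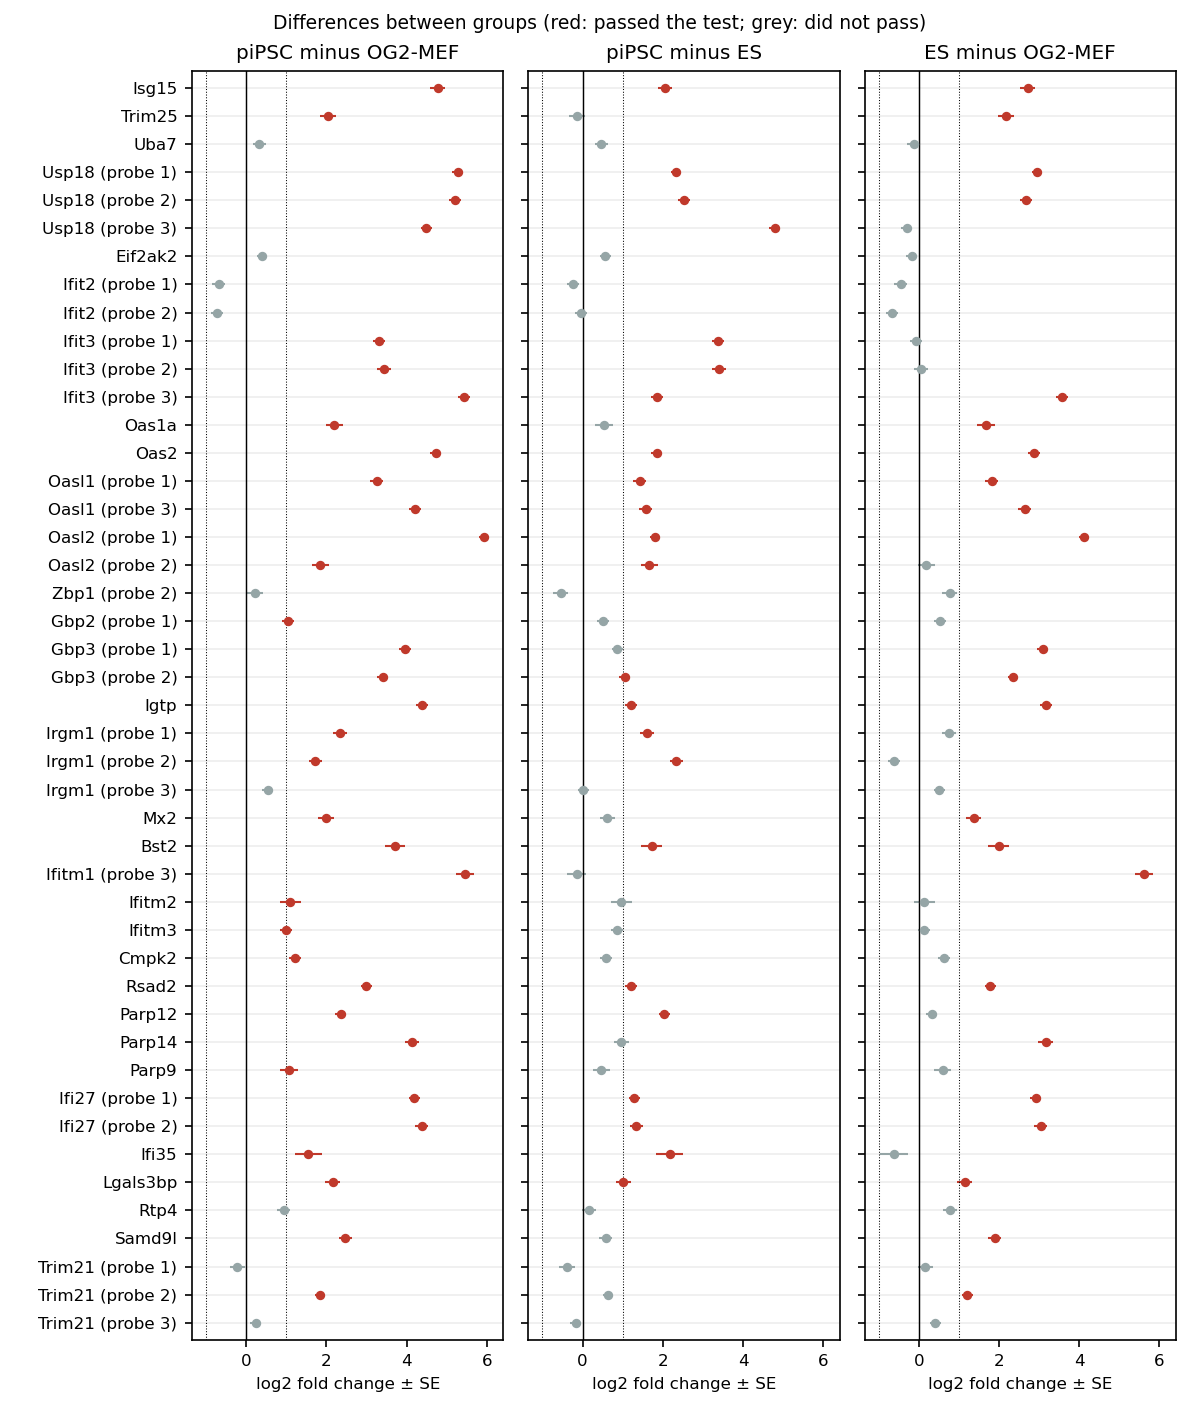
Log2 fold change with its standard error (x axis, 1 panel per comparison) of each tested probe (y axis, grouped by role), fitted over 6 arrays; red points passed the test, dotted lines mark 2-fold, and a point of a probe not above background in a group is a fitted value, not a bound. In piPSC minus OG2-MEF 36 of the 45 points are red and lie right of the 2-fold line, in piPSC minus ES 23 and in ES minus OG2-MEF 23 (over all tested probes 19.0%, 6.90% and 23.2%), and none is red on the left.

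The comparison of piPSC with ES sets the induced cells against an established pluripotent line in the same culture. It uses the same piPSC arrays as the comparison with OG2-MEF, so the differences are not independent. Of the 32 tested genes, 15 were higher in piPSC and 0 lower, where 8.07% of all tested genes were higher and 5.14% lower. At an unadjusted limma p under 0.05 with no fold threshold, Zbp1 was the 1 gene lower (-0.55, adjusted p = 0.08). The median difference of the 45 probes was 1.02, against -0.12 for all tested probes. Among the 39 probes above background on both ES arrays, 18, from 15 genes, were higher in piPSC, against 3.54% of all such probes. The genes were Isg15, Usp18, Ifit3, Oasl1, Oasl2, Oas2, Rsad2, Ifi35, Ifi27, Bst2, Parp12, Lgals3bp, Gbp3, Igtp and Irgm1.

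Isg15 lay 2.06 higher in piPSC than in ES (SE 0.18, adjusted p = 0.0019), and the 2 brighter Usp18 probes lay 2.33 (SE 0.13, adjusted p = 0.00048) and 2.53 (SE 0.15, adjusted p = 0.00065) higher. Parp12 differed by 2.04 (SE 0.14, adjusted p = 0.00086), and its ES level lay 0.32 above that of OG2-MEF, a difference that did not pass (adjusted p = 0.078). Ifi35, too, did not differ between ES and OG2-MEF by the test (-0.62, adjusted p = 0.15). It differed by 2.17 between piPSC and ES (SE 0.34, adjusted p = 0.01), and the mean of piPSC lay 1.62 above ES replicate 1 and 2.71 above ES replicate 2. Oas2 (1.85, SE 0.14), the bright Ifit3 probe (1.85, SE 0.15), the bright Oasl2 probe (1.80, SE 0.13) and Bst2 (1.73, SE 0.26) each differed by more than 3-fold. Gbp3 differed by 1.05 (SE 0.13) on one probe and 0.87 (SE 0.14), short of 2-fold, on the other, and Lgals3bp by 1.02 (SE 0.19).

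The other 17 genes did not pass in either direction between piPSC and ES. Ifitm1 differed by -0.15 (SE 0.23, adjusted p = 0.62) and Trim25 by -0.13 (SE 0.20, adjusted p = 0.62), although both were higher in piPSC and in ES than in OG2-MEF. Ifitm2 (0.97, SE 0.26, adjusted p = 0.043), Parp14 (0.97, SE 0.18, adjusted p = 0.017) and Ifitm3 (0.87, SE 0.15, adjusted p = 0.013) passed on the adjusted p and fell short of 2-fold. Ifitm2 lay 0.57 above ES replicate 1 and 1.36 above ES replicate 2, so that the ES arrays decided it. With adjusted p as the only criterion 23 genes were higher, and with a test against 2-fold (treat in limma) 7. The number of genes higher was 16 without ES replicate 1, where Ifitm2 passed, and 15 without ES replicate 2, where Parp14 passed and Lgals3bp did not. It was 9 without piPSC replicate 1 and 11 without piPSC replicate 2. Bst2, Gbp3, Ifi35 and Lgals3bp lost the call in both of these fits, and Igtp and Rsad2 in the first (adjusted p 0.05 to 0.11). In these fits the spread between the ES arrays weighs more, and the piPSC group has 1 array that is assumed to vary like the others. Gbp3 (0.95) and Rsad2 (0.99) also fell short of 2-fold without background correction.

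Between ES and OG2-MEF, the established pluripotent line against the fibroblasts, 19 of the 32 tested genes were higher in ES and 0 lower, where 27.1% of all tested genes were higher and 25.5% lower. Ifit2 and 1 probe of Irgm1 were lower at an unadjusted limma p under 0.05, short of 2-fold. The median difference was 1.14, against 0.05 for all tested probes. Of the 27 probes above background on both OG2-MEF arrays, 12, from 10 genes, were higher in ES, against 18.9% of all such probes. The bright probes of Ifitm1, at least 34.6-fold higher, and Oasl2, at least 14.7-fold higher (adjusted p = 6.8e-06), differed most among those not above background in OG2-MEF. Igtp was at least 7.24-fold higher, Parp14 at least 6.78-fold, Gbp3 at least 6.22-fold on one probe and Oas2 at least 4.88-fold. Ifit3 (3.57, SE 0.15), Usp18 (2.94, SE 0.13), Ifi27 (2.91, SE 0.14) and Isg15 (2.71, SE 0.18) had the largest differences on probes above background in both groups, taking the brightest probe of each gene. Ifitm2 (0.14, SE 0.26), Ifitm3 (0.14, SE 0.15), Parp12 (0.32, SE 0.14) and Ifi35 (-0.62, SE 0.34) did not pass. Without ES replicate 1, Ifi35 lay 1.17 lower in ES and passed as the only gene lower (log2 fold change -1.17, adjusted p = 2.6e-05), a fit in which ES replicate 2 stands alone. Without ES replicate 2, 19 genes were higher and 0 lower. Trim21, at 1.21 on 1 probe, fell short of 2-fold without background correction (0.89), with median scaling (0.89) and with an offset of 50 (0.82), and that offset also took the fitted differences of Mx2 (0.70), Oas1a (0.90) and Rsad2 below the threshold.

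Of the 32 tested genes, 9 had several tested probes, and the probes of a gene did not always agree. Disagreement, meaning that at least 1 probe changed while another moved under 2-fold or was called the other way, held for 2 genes between piPSC and OG2-MEF, 2 between piPSC and ES and 4 between ES and OG2-MEF. Over all genes with several tested probes the shares were 23.0%, 22.6% and 40.6%. On Usp18, the third probe read 9.33 and 9.05 in piPSC but 4.39 and 4.41 in ES, not above background, where the other probes read between 8.18 and 9.0. On it piPSC was at least 16.4-fold higher than ES, against 5.03-fold and 5.76-fold on the others. On Ifit3, the dim probes read 8.04 and 7.80, and 8.27 and 7.94, in piPSC and were not above background in ES, and piPSC was at least 6.78-fold and 7.70-fold higher there, against 3.61-fold on the bright probe. On the dim probes of both genes the differences between ES and OG2-MEF did not pass (Usp18 -0.30, adjusted p = 0.1; Ifit3 -0.08 and 0.05, adjusted p = 0.66 and 0.81), since neither group was above background.

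The probes of Irgm1, a GTPase of autophagy and defence against intracellular bacteria, differed in which group they separated. One read 13.40 and 13.28 in piPSC, 12.80 and 12.81 in OG2-MEF and 13.25 and 13.39 in ES, and moved by no more than 0.53 in any comparison. A second read 10.81 and 10.60 in piPSC, 8.32 and 8.40 in OG2-MEF and 9.29 and 8.92 in ES, with piPSC 2.34 above OG2-MEF (SE 0.17) and 1.60 above ES (SE 0.17). The third read 7.02 and 6.68 in piPSC and 5.04 and 5.21 in OG2-MEF and was not above background in ES, where piPSC was at least 3.22-fold higher. Trim21, a cytosolic antibody receptor, passed on 1 of 3 probes, at 7.40 and 7.45 in piPSC, 5.56 and 5.62 in OG2-MEF and 6.71 and 6.88 in ES (1.84 between piPSC and OG2-MEF, SE 0.13), while its other probes lay between 4.93 and 5.63 on all arrays. Oasl2 had a second probe at 6.38 and 6.45 in piPSC that was above background on ES replicate 1 (5.03) and not on ES replicate 2 (4.47). Of the 23 probes called higher in piPSC than in ES, 4 (17.4%) were not above background on either ES array, against 29.2% of the 1003 such calls on the whole table. For all 4, another probe of the gene was above background on both ES arrays. Counting only probes above background on both ES arrays left the number of genes higher in piPSC at 15. The probe sequences were not used here, and which transcripts each probe reads was not tested.

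**Figure D3:**
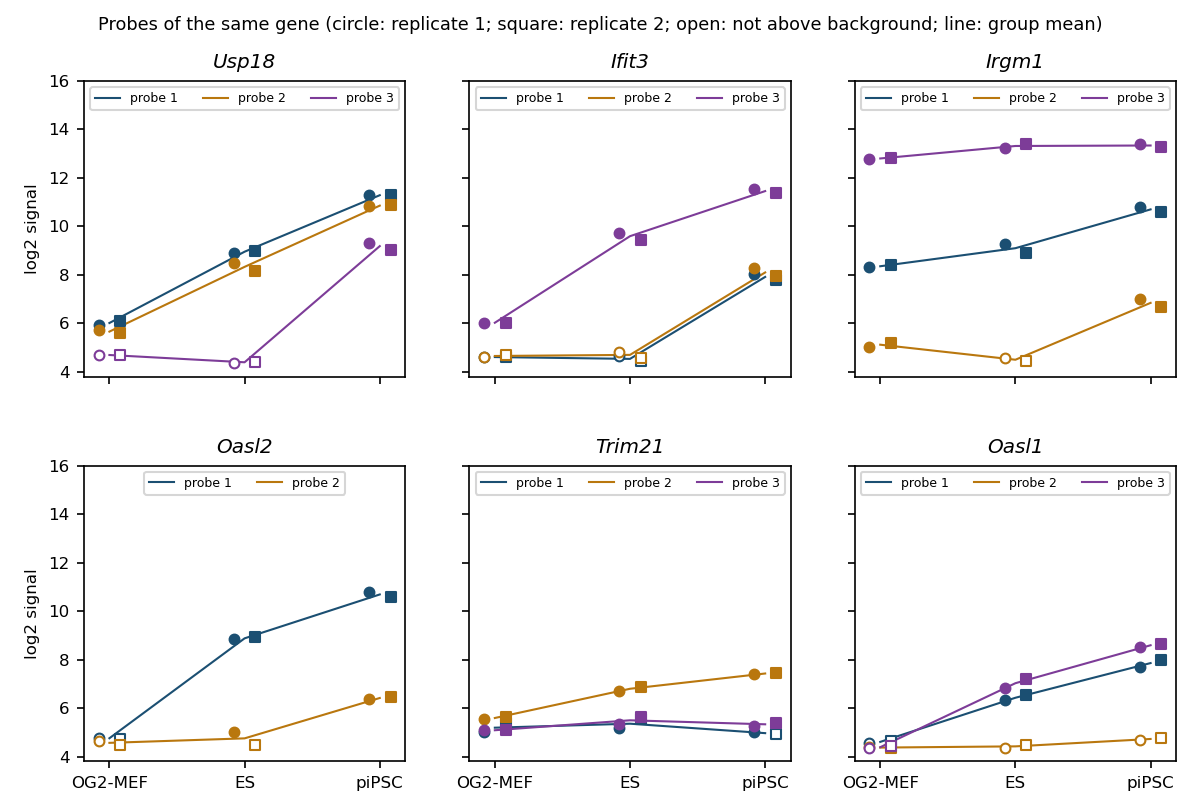
Log2 signal (y axis) of each probe of 6 genes in OG2-MEF, ES and piPSC (x axis); circles are replicate 1, squares replicate 2, open symbols are not above background and lines join group means. Usp18, Ifit3 and Irgm1 each have a probe that is open on both ES arrays and filled in piPSC, while another probe of the gene is filled in all 3 groups.

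None of the interferon genes themselves could be tested. Of 12 ligand genes, 10 had a probe, and of their 11 probes, Ifnb1, the alpha interferons and Ifng included, none was above background on a piPSC or ES array. Only Ifne was above background, on 1 OG2-MEF array (5.03). Among 23 genes of sensing and signalling, 20 had a probe and 16 were tested. Of these, 8 were higher and 3 lower in piPSC than in OG2-MEF, where 21.2% of all tested genes were higher and 22.5% lower. Between piPSC and ES, 5 were higher and 1 lower, against 8.07% and 5.14% of all tested genes. Between ES and OG2-MEF, 5 were higher (31.2%) and 3 lower, near the 27.1% and 25.5% of all tested genes. Named after their values were seen, the genes higher in piPSC than in ES were Ddx58, Irf1, Irf7, Irf9 and Tyk2, those higher in ES than in OG2-MEF were Dhx58, Irf1, Irf7, Ifngr2 and Socs3, and those lower in ES were Irf1, Ifngr1 and Ifngr2, with Irf1 and Ifngr2 on both sides through different probes. Against ES, the Irf1 call rested on 1 of 4 tested probes, not above background in ES, while its brighter probes differed by -0.24 and 0.28. The Tyk2 calls, too, were on probes not above background on one or both ES arrays, and its brightest probe differed by 0.42 (adjusted p = 0.064).

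Irf7, the transcription factor that amplifies type I interferon production and is itself interferon-inducible, read 7.35 and 7.30 in piPSC, 5.93 and 6.71 in ES and, not above background, 4.40 and 4.43 in OG2-MEF. It was at least 5.01-fold higher in piPSC than in OG2-MEF and 1.01 higher than in ES (SE 0.25, adjusted p = 0.035). Irf9, the DNA-binding part of ISGF3, read 9.74 and 9.80 in piPSC, 7.85 and 7.67 in OG2-MEF and 8.53 and 8.06 in ES on its brighter probe. This was 2.01 higher in piPSC than in OG2-MEF (SE 0.19) and 1.47 higher than in ES (SE 0.19). Stat2, its partner, was 1.43 higher in piPSC than in OG2-MEF (SE 0.15), and its difference of 0.50 from ES did not pass (adjusted p = 0.056). Ddx58, which encodes RIG-I, read 10.12 and 9.88 in piPSC and 7.47 and 7.22 in OG2-MEF, while the ES arrays differed widely, at 7.95 and, not above background, 4.79. The mean of piPSC lay 2.05 above ES replicate 1. Socs3, a brake on cytokine receptors that also responds to leukemia inhibitory factor, was 3.07 higher in piPSC than in OG2-MEF (SE 0.13) and differed by -0.25 from ES (adjusted p = 0.19).

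The genes lower in piPSC than in OG2-MEF all encode receptor chains. They were Ifngr1 (log2 fold change -1.95, SE 0.20), Ifngr2 (-2.84, SE 0.27, and -2.52, SE 0.22, on a pair of its probes) and Ifnar2 (-1.26, SE 0.20, and -1.16, SE 0.18), the last named after its values were seen. The third Ifngr2 probe read the other way in ES, at 9.35 and 10.41 against 7.79 and 8.25 in OG2-MEF and 8.55 and 8.13 in piPSC, and this made Ifngr2 the gene lower in piPSC than in ES (-1.54, SE 0.38, adjusted p = 0.033). Ifnar1, the partner of Ifnar2 in the type I receptor and also named after its values were seen, had 1 probe, which was not above background on any array.

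**Figure D4:**
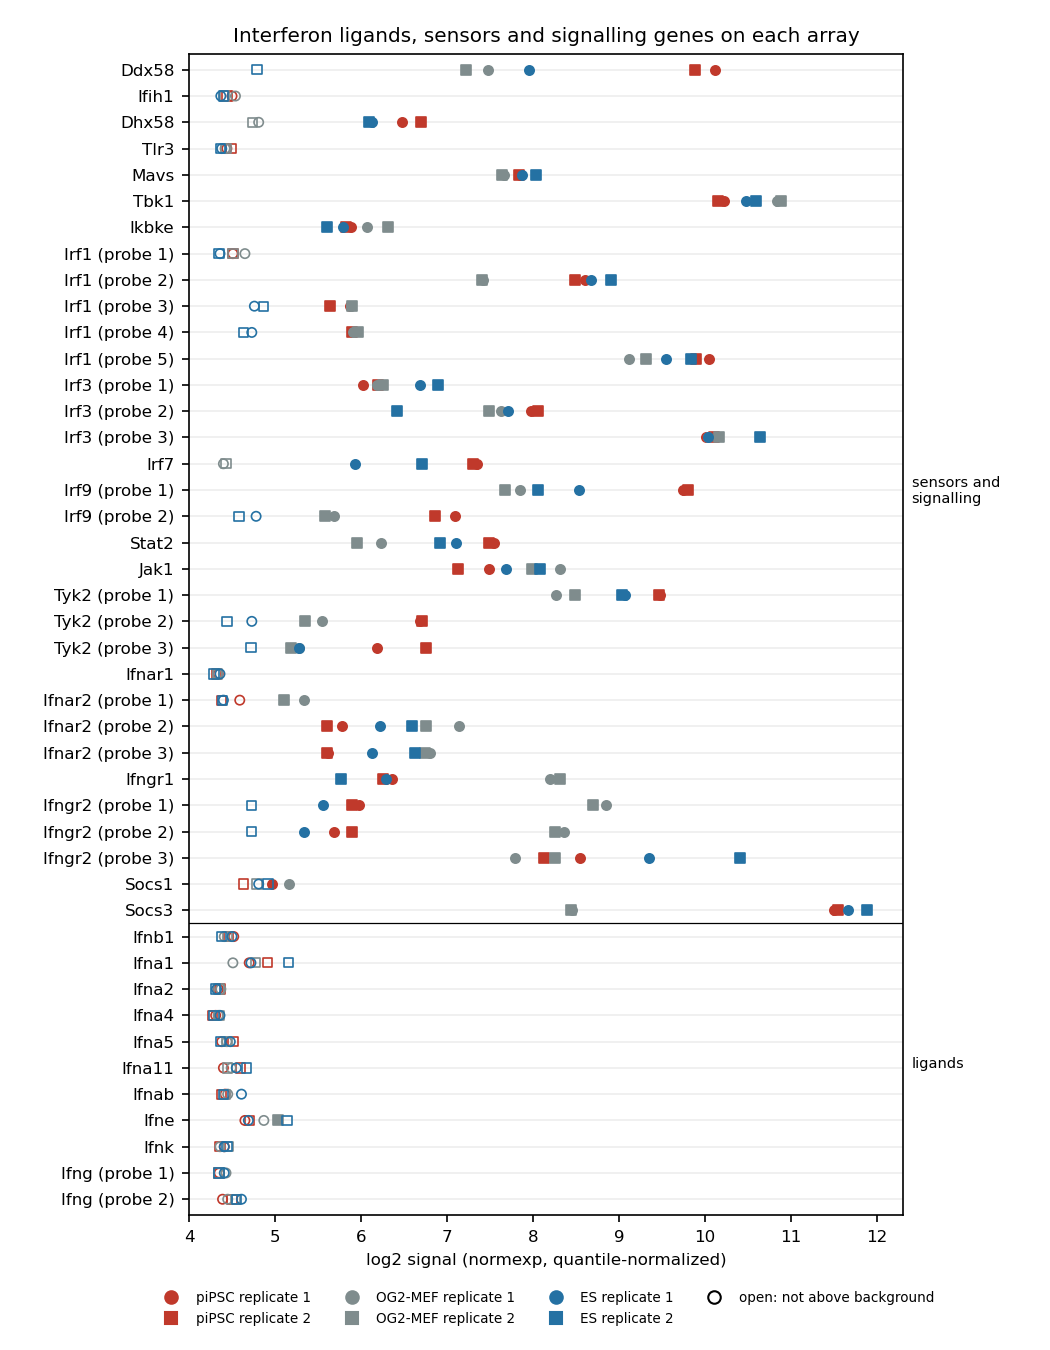
Log2 signal (x axis) of all probes of interferon sensor, signalling and ligand genes (y axis) on each of the 6 arrays; circles are replicate 1, squares replicate 2, and open symbols are not above background. The ligand probes are open on all arrays except 1 OG2-MEF array for Ifne, while Irf7 and Irf9 lie furthest right in piPSC.

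Macrophages and endothelial cells also make many of these proteins, so their markers are set beside the results. Of 14 macrophage markers, 10 had a probe, and Ptprc, Tyrobp, Itgam and Spi1 were not above background on any array. The summed linear signal of the 17 probes lay at 10928 and 12397 in piPSC, 10232 and 9569 in ES and 1664 and 1764 in OG2-MEF, and Laptm5, a lysosomal membrane protein, averaged 13.40 ± 0.14 (SD, n = 2) in piPSC, 13.14 ± 0.09 in ES and 8.13 ± 0.14 in OG2-MEF. Without Laptm5 the sum was 811 and 817 in piPSC, 812 and 917 in ES and 1402 and 1463 in OG2-MEF, so that the direction between piPSC and OG2-MEF rested on that gene. Of 6 tested macrophage genes, 1 (Laptm5) was higher and 3 lower in piPSC than in OG2-MEF, against 21.2% and 22.5% of all tested genes. The 3 lower were Cd14, Lyz2 and Fcer1g, named after their values were seen. Between piPSC and ES 0 passed in either direction, where 8.07% of all tested genes were higher and 5.14% lower. Cd14, at 0.74 with adjusted p = 0.019, was short of 2-fold. Endothelial markers moved with the genes described here against OG2-MEF, but not between piPSC and ES. Of 8, 7 had a probe and 4 were tested. Of these, 3 were higher and 0 lower in piPSC than in OG2-MEF, against 21.2% and 22.5% of all tested genes. The same 3 were higher and 0 lower in ES than in OG2-MEF, against 27.1% and 25.5%. These were Pecam1 (4.36, SE 0.66, between piPSC and OG2-MEF on one probe), Tek (2.39, SE 0.16) and Egfl7 (1.89, SE 0.14, on one probe). Between piPSC and ES, 0 of the 4 were higher and 1 lower, against 8.07% and 5.14% of all tested genes, and the median difference of their probes was -0.59. The gene lower was Pecam1 on its other probe (-1.44, SE 0.25, adjusted p = 0.014), while the first differed by 1.24 (adjusted p = 0.2). Cdh5, Kdr and Tie1 were not above background on any array, and the summed signal of the 10 endothelial probes lay at 2340 and 2560 in piPSC, 3256 and 3551 in ES and 648 and 706 in OG2-MEF. The part of such cells in the results was not tested.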

How the data were processed

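RNA of 6 samples was read on Illumina arrays of 25697 probes. The deposited table held a linear intensity per probe and array, not normalized between arrays, and, per the file headers, a detection p-value. The authors' deposited matrix of log2 values equalled quantile-normalized log2 intensities without background correction within 0.0012, with a median of 5.89 in each column. Scanner software and its background subtraction are not given in the sources used here.

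Background was removed here from the raw intensities by normexp, which used the detection p-values. After an offset of 16, arrays were quantile-normalized and log2 values formed (the neqc method, limma 3.58.1 under R 4.3.3). Symbols came from the array annotation, updated through a RefSeq gene table (GRCm38.p6): 23978 probes had 1 symbol and 1719 none. Probes were tested where detection p was under 0.05 on each array of 1 group or more, each as its own row (14533 probes of 9900 genes), because probes of 1 gene may disagree. A single limma fit (lmFit and eBayes) of 3 group means left 3 degrees of freedom, to which the prior added 2.92, with Benjamini-Hochberg adjustment over all tested probes in each comparison. On simulated data with 200 probes changed by 2 on the log2 scale between piPSC and OG2-MEF, 98% were recovered, with 1 false call and 0 of wrong sign. The simulated spread was that of the piPSC and OG2-MEF arrays, without ES. The fit of the measured data also pools the ES spread. The SD of the difference between replicates was 0.645 in ES, 0.21 in piPSC and 0.193 in OG2-MEF. Recovery and false calls with the ES spread included were not tested. A bound ("at least") sets the mean of the brighter group against, per array, the higher of the lowest signal above background and the dim probe's own.

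The genes and the other lists were chosen with earlier results of these data known, so no list is tested and none is independent support. All genes of the list were eligible to be named. Values on every array are given for those with the largest differences, with disagreeing probes or not above background in a group. From the other lists up to 4 genes with the largest difference are named, with Stat2, Irf7 and Irf9, and 1 further gene is not reported here. Samples were not paired by replicate number in the main fit. The correlation of replicate differences was 0.079 between piPSC and OG2-MEF, 0.004 between piPSC and ES and 0.253 between OG2-MEF and ES. Whether samples of the same replicate number shared a batch was not tested. The alternatives were the authors' matrix, no background correction, an offset of 50, median scaling, other filters on dim probes, 1 probe per gene, other thresholds and spreads, the replicate block and leaving out each array. Counting only probes above background on both ES arrays was added after seeing the data.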

Additional observations from a re-analysis of the deposited data

How the results depend on the processing

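No called difference of a gene of the list changed sign under an alternative. Between piPSC and OG2-MEF, 5815 probes changed, 9472 by adjusted p alone, 3244 by a test against 2-fold, and 5436 to 5589 with 1 array left out. The genes of the list that were higher numbered 27, and 24 to 25 with 1 array left out. None was lower, except Ifit2 by adjusted p alone (1 gene). Between piPSC and ES, 1575 probes changed, 920 with an offset of 50, 832 with 1 probe per gene, 4020 by adjusted p alone, 249 by the test against 2-fold, 1039 with only the 4 arrays compared, 1015 with only probes above background on both ES arrays, and 409 to 2990 with 1 array left out. The balance of all these calls turned with the setting: 63.7% were higher in piPSC as reported and 92.4% by the test against 2-fold, but 48.3% with 1 probe per gene, 43.5% with only probes above background on both ES arrays and 41.6% by adjusted p alone. The genes of the list that were higher numbered 15, 23 by adjusted p alone, 7 by the test against 2-fold and 9 to 16 with 1 array left out, the 9 without piPSC replicate 1. Between ES and OG2-MEF, 6765 probes changed, 10398 by adjusted p alone, 4134 by the test against 2-fold and 6318 to 7361 with 1 array left out. The genes of the list that were higher numbered 19, 15 with an offset of 50, 16 by the test against 2-fold, 17 with median scaling, and 18 to 19 with 1 array left out. Lower were 2 by adjusted p alone, 1 with median scaling (Ifit2, log2 fold change -1.10) and 0 to 1 with 1 array left out, the 1 being Ifi35 without ES replicate 1. The causes of these shifts were not tested, beyond fewer probes or arrays entering some fits. Median scaling moved the median of all probes from 0.02 to -0.18 between piPSC and OG2-MEF, and the share of changed probes that were higher from 47.6% to 36.4%. It left 25 genes of the list higher. With the replicate number as a block, 5830, 1594 and 6789 probes changed in the 3 comparisons, and the genes of the list numbered 27, 15 and 19 higher as without it.

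The signals of Ifit1, Oas3, Mx1, Xaf1, Ifi204 and Isg20 were too near background for any difference to be detectable. Calls close to 2-fold (Gbp2, Ifitm2, Ifitm3, Parp9, Cmpk2, and for ES also Gbp3, Rsad2 and Lgals3bp) depend on the background correction, the scaling or single arrays. Some calls further from 2-fold also depend on single arrays, as given above for Ifi35 and Bst2 between piPSC and ES.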
